A study of Mus musculus with 27 samples.

Results

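The promoters compared here were those of mouse induced pluripotent stem cells (iPSCs) and of pre-iPSCs, cells stalled on the way to that state, and the measurement was how many nucleosomes lay over the region just upstream of each transcription start site (TSS). Of the 20156 TSSs examined, 7748 had enough reads to pass a filter. Of these 7748, 698 had a lower nucleosome level there, relative to an upstream flank, by at least 2-fold in iPSCs in both replicate pairs. By the same rule 338 had a higher one. The excess of the first was small once each pair was centred on its median promoter (536 and 487) or on promoters of like GC content (558 and 483), and the counts were 354 and 1440 without pre-iPSC replicate 1 and 1271 and 331 without iPSC replicate 1. With a library left out, both comparisons share the one that remains of its cell type, so they are not separate. The germline genes Tdrd12, Stk31 and Mael and the pluripotency marker Zfp42 were among those that opened. The share that opened was 17.1% of the filtered germline genes and 8% of the filtered pluripotency genes, beside 9.01% of all filtered promoters. Genes more highly expressed in iPSCs had less nucleosome signal there, relative to all promoters, in both pairs, and genes less expressed in iPSCs had more. With the replicate numbers crossed, each of these differences was near 0 in 1 of the 2 pairings. The 2 replicate pairs went in opposite directions at 50.2% of the promoters that passed the filter, and none passed the edgeR test across all promoters.

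The comparison used 4 of the 27 libraries of the series, 2 of iPSCs and 2 of pre-iPSCs, all made by chromatin immunoprecipitation with an antibody to histone H3 after digestion with micrococcal nuclease (MNase). Both cell types came from embryonic fibroblasts (MEFs) of mice with an Oct4-GFP transgenic allele and a Rosa26 allele, on a background the labels give as CBA/CaJ and C57BL/6J (per the methods this is the paternal side, and the mothers were of another strain), and were induced with retroviruses carrying Oct4, Sox2, Klf4 and c-Myc. The pre-iPSCs were stable clones that had not reached pluripotency, the iPSCs were derived from them, and both were grown with serum and LIF on inactivated MEF feeder layers. The labels do not say which clone gave which library, so each pair only shares a replicate number, and p-values measure only the spread between libraries.

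A nucleosome is a stretch of DNA wrapped around 8 histone molecules, and its midpoint is called the dyad. Active promoters usually keep a nucleosome-depleted region just upstream of the TSS, followed by a well-placed nucleosome downstream, the +1 nucleosome, and by further nucleosomes at regular spacing. Promoters rich in CpG dinucleotides tend to hold an open region whether or not the gene is strongly transcribed, whereas CpG-poor promoters tend to open in the cell types that use them. In this system the retroviral factors must engage genes that are wrapped in nucleosomes in fibroblasts, which is why the state of these promoters in pre-iPSCs is of interest.

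The 4 H3 libraries held 108211816 and 67362868 reads in nucleosome calls in pre-iPSC replicates 1 and 2, and 94092528 and 69025112 in iPSC replicates 1 and 2. The libraries numbered 1 stood apart. Over all TSSs the window level defined below was 1.33 and 0.544 in the pre-iPSC libraries and 0.895 and 0.566 in the iPSC libraries, while 2 MEF libraries were at 0.583 and 0.624. MEFs were digested with another amount of MNase and for another time. Their levels, here and below, are thus not a like-for-like comparison with the other cell types. The ratio followed the GC content of the window upwards in pre-iPSC replicate 1 (Spearman's rho = 0.21 over filtered promoters) and downwards in pre-iPSC replicate 2 (rho = -0.46), so each pair is given by itself throughout. Window counts were low, with a median of 2, 1, 3 and 2 reads per promoter over all TSSs, and of 30, 4, 16 and 5 over those that passed the filter below.

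The promoter window ran from -150 to +50 bp of the TSS, and its level was the number of reads of all nucleosome calls with a dyad inside it, per bp, over the same number in a 1-kb flank that began 2000 bp upstream. A promoter opened when this ratio, on the log2 scale with 5 reads per kb added, was lower by at least 1 in iPSCs in both pairs, and closed when it was higher by at least 1 in both. The rule reads the ratio, so a promoter can open or close through its flank. Of all TSSs, 7748 had an average of at least 5 reads in the window and 20 in the flank, and 12408 did not. The 8641 that failed through the window alone include many promoters that are open in every library, so the promoters counted below are those with some nucleosome signal in at least 1 library.

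The sequences of 5 promoters that the results turn on are given first, 3 that opened and 2 that closed. Each shows the 150 bases upstream of the TSS, 5′ to 3′ on the strand of the gene, in mm9 coordinates, with capitals marking the bases under the 147-bp footprint of the strongest nucleosome call in the window in the cell type that carried more.
Zfp42, chr8:44392364-44392513, minus strand: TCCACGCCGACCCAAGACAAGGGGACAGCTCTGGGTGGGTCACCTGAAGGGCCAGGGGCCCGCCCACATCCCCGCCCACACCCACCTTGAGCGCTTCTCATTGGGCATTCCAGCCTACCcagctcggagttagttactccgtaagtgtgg
Tdrd12, chr7:36322764-36322913, minus strand: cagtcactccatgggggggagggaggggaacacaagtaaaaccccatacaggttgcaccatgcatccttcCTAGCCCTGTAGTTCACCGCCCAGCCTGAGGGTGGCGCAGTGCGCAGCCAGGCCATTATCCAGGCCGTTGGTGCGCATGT
Stk31, chr6:49345453-49345602, plus strand: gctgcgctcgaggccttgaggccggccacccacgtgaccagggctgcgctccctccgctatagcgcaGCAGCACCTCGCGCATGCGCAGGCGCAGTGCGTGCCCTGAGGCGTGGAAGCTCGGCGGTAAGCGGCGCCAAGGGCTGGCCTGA
Pyy, chr11:101969091-101969240, minus strand: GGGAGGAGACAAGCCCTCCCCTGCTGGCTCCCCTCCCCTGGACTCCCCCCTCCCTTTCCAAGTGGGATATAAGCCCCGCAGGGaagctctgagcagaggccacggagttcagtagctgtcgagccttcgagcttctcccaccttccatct
Plg, chr17:12571325-12571474, plus strand: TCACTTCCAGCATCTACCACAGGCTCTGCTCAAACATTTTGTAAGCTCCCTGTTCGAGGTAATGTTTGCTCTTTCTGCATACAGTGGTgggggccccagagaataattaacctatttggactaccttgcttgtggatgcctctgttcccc

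Zfp42 encodes REX1, a zinc finger protein that marks pluripotent cells. Its window held 49 and 14 reads in pre-iPSC replicates 1 and 2, and 3 and 1 reads in iPSC replicates 1 and 2. In pre-iPSC replicate 1 these reads were 1 nucleosome centred 105 bp upstream of the TSS, which covered the capitals of the sequence above. Pre-iPSC replicate 2 had 2 calls in the window, the strongest at +47 bp with 7 reads, so the libraries placed them differently. The flank held 6, 26, 32 and 19 reads in the same order of libraries, so the change was -5.39 in pair 1 and -2.53 in pair 2 on the log2 scale. Both iPSC ratios were below both pre-iPSC ratios, as at 940 of the 7748 filtered promoters, while 792 had both above. The rule reads these same ratios, so this adds no support. Transcript levels were 0.00 and 0.08 FPKM (fragments per transcript length and sequencing depth) in pre-iPSCs against 56.0 and 63.9 FPKM in iPSCs, a log2 difference of 5.87 ± 0.35 (SE; limma, adjusted p = 0.000487). The mark H3K4me3, found at active promoters, had 5 and 5 reads within 500 bp of the TSS in pre-iPSCs against 17 and 14 in iPSCs, which did not pass the test across promoters (edgeR, adjusted p = 0.432).

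Tdrd12 encodes a Tudor domain protein of the piRNA pathway, which silences transposons in germ cells. A nucleosome lay almost on its TSS in pre-iPSCs, with a dyad at -7 bp and 108 reads in replicate 1 and at +6 bp and 5 reads in replicate 2. Neither iPSC library had a read in the window. On both sides the array stayed in place in pre-iPSCs, with dyads at -176 and -177 bp upstream and at +174 and +173 bp downstream in replicates 1 and 2. In iPSCs the nearest downstream dyads were at +137 and +112 bp, closer to the TSS than in pre-iPSCs, and in replicate 2 a call with 5 reads stood at -153 bp, just outside the window. Expression was 0.00 and 0.05 FPKM in pre-iPSCs against 9.06 and 7.35 FPKM in iPSCs (limma, adjusted p = 0.002).

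Germline genes were examined as a group. The list held 47 genes in the table, of which 41 passed the filter, and 7 of these opened and 1 closed. These are 17.1% and 2.44% of its filtered members, against 9.01% opening and 4.36% closing among all 7748 filtered promoters. The list was chosen with earlier results of these data known, and the filter keeps promoters through the library in which they are high, so the shares describe these libraries and are not a test. The 7 that opened were Stk31, Tdrd12, Mael, Rec8, Dmc1, Kit and Tuba3a, and all 7 were called higher in expression in iPSCs by limma, as were 26 of the 30 germline genes tested, whether or not they opened, against 3.91% of all genes tested. Tdrd7 closed, with changes of 1.31 and 1.01 and no call in expression.

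Stk31, a kinase of spermatogonia, carried 60 and 10 window reads in pre-iPSCs and 0 in both iPSC libraries. Its nucleosomes were at -10 bp in pre-iPSC replicate 1 and at -138 bp in replicate 2, so the 2 libraries placed them differently inside the window. In iPSC replicate 2 calls stood just outside both edges, with 7 reads at -158 bp and 8 reads at +58 bp, and in iPSC replicate 1 a call with 34 reads stood at +76 bp. Mael, needed for piRNA production in the testis, had 98, 11, 27 and 2 window reads in pre-iPSC replicates 1 and 2 and iPSC replicates 1 and 2. Its nucleosome near -148 bp was present in both pre-iPSC libraries and in iPSC replicate 1, while the call near the TSS was missing from iPSC replicate 1 and held 2 reads in iPSC replicate 2. Rec8 and Dmc1, which encode a meiotic cohesin and a meiotic recombinase, went from 58 and 4 reads to 0 and 1 and from 66 and 3 reads to 0 and 0. Kit, the stem cell factor receptor, held 30 and 4 reads in pre-iPSCs against 2 and 1 in iPSCs, with a dyad 48 to 65 bp upstream of the TSS in all 4 libraries. In replicate 1 the flanks of Stk31, Mael, Rec8 and Kit held 23, 13, 14 and 15 reads in pre-iPSCs. They held 43, 51, 40 and 27 in iPSCs, where the medians over filtered promoters were 59 and 52. Part of the pair 1 change of these genes thus came from the flank. At Dmc1 the flank went the other way, from 64 to 45.

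Over all 47 germline genes together, the window level was 5.78 and 0.862 in pre-iPSC replicates 1 and 2 and 1.79 and 0.743 in iPSC replicates 1 and 2. The iPSC level was 0.309 of the pre-iPSC level in pair 1 and 0.861 in pair 2, against 0.674 and 1.04 over all promoters. With the numbers crossed it was 0.128 for iPSC replicate 2 over pre-iPSC replicate 1 and 2.07 for iPSC replicate 1 over pre-iPSC replicate 2, against 0.427 and 1.64, so the last pairing had the opposite direction. The first value of pre-iPSC replicate 1 is far above the others, and its share in the difference was not tested. In the 2 MEF libraries the germline level was 0.729 and 1.1. The list of 41 filtered members had a median change of -1.55 in pair 1 and -0.36 in pair 2, beside -0.61 and 0.08 over all filtered promoters.

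**Figure D1:**
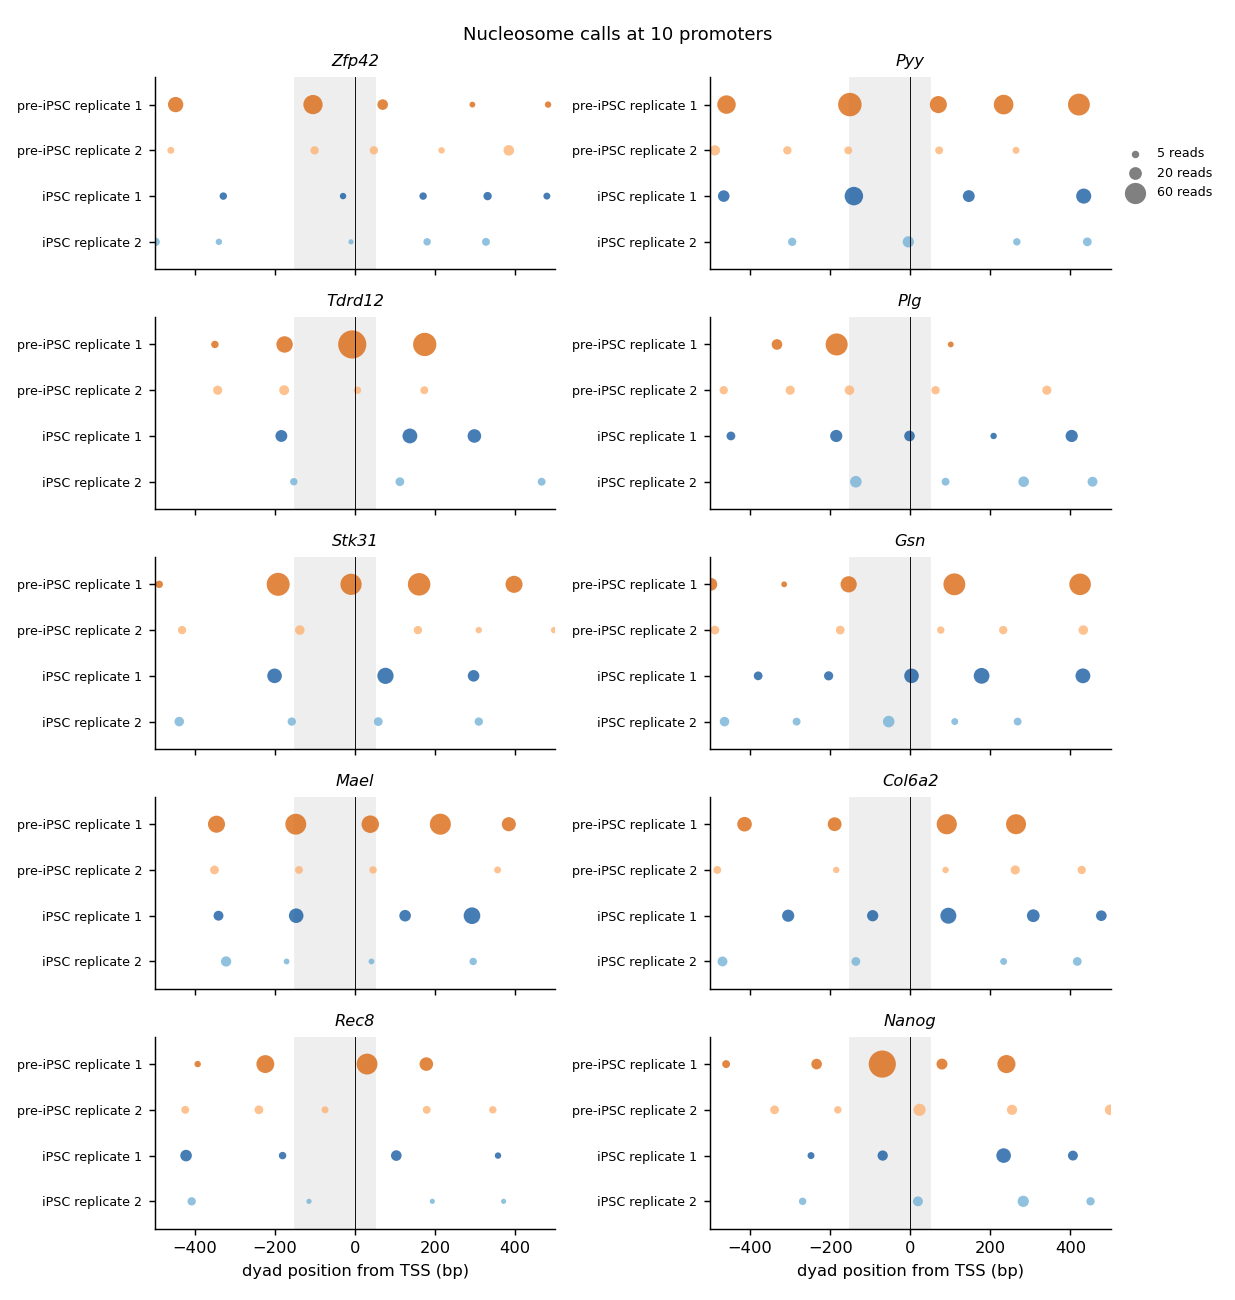
Nucleosome calls at 10 promoters, plotted by distance of the dyad from the TSS in bp, with 1 row for each library and a dot area that grows with the reads of the call. The grey band is the promoter window from -150 to +50 bp. Zfp42, Tdrd12, Stk31, Mael and Rec8 (left) had more reads in the band in pre-iPSCs (orange) than in iPSCs (blue) of the same replicate number. At Mael, iPSC replicate 1 held 27 reads there and pre-iPSC replicate 2 held 11. Pyy, Plg, Gsn and Col6a2 (right) had calls in the band in iPSCs and none in pre-iPSCs. The Nanog window was occupied in all 4 libraries.

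Of the 57 pluripotency genes listed, 25 passed the filter, 2 opened (Zfp42 and Tex19.1) and 1 closed (Lin28b), which is 8% and 4% against the background of 9.01% and 4.36%. Expression was called higher in iPSCs for 27 of the 57, against 3.91% of all genes tested. Tex19.1, a germ cell and placenta protein active in pluripotent cells, had 58 and 10 window reads in pre-iPSCs against 13 and 0 in iPSCs, at a dyad 87 to 100 bp upstream wherever there was a call. Nanog, a core factor of pluripotency, had 100, 18, 12 and 11 window reads over flanks of 239, 35, 118 and 32. Its change was -1.97 in pair 1 and -0.55 in pair 2, and the call sat 69 to 70 bp upstream in both libraries numbered 1 and 19 to 23 bp downstream in both numbered 2. Nanog transcripts were at 0.52 and 0.00 FPKM in pre-iPSCs against 49.5 and 73.6 FPKM in iPSCs.

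The genes of the reprogramming factors need care. The Pou5f1 (Oct4) window held 655, 66, 191 and 61 reads, and its flank 1786, 417, 573 and 324 reads, while the median flank over all promoters held 34, 26, 42 and 29. The Oct4-GFP allele is driven by regulatory sequence of this gene, and reads from its copies and from the gene itself cannot be told apart. In MEF replicates 1 and 2 the flank held 410 and 48 reads, over medians of 26 and 31, so the excess differed between libraries of 1 cell type. The source of the excess was not tested. The ratio differed by -0.14 in pair 1 and 0.25 in pair 2. Klf4 and Sox2 had too few window reads to pass the filter (0 to 6 in each library), and Myc changed by 0.23 and -0.85. The transcripts of these 4 genes come from the endogenous copies or from the retroviruses, which were not separated.

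Other genes named by the study gave mixed results in these libraries. The paper followed H3 by immunoprecipitation and PCR in pre-iPSCs during treatment with vitamin C and Setdb1 siRNA. It reports a loss at the promoters of Zfp42, Ddx4 and Nanog, and the opposite trend at Inhba and Vcam1. That is another assay on other samples, so the values here are not a like-for-like comparison. Ddx4, the germ cell helicase also known as Vasa, had 47 and 4 window reads in pre-iPSCs against 0 and 4 in iPSCs, a change of -6.31 in pair 1 and of -0.36 in pair 2. Inhba, which encodes an activin subunit, had changes of 3.83 in pair 1 and -0.38 in pair 2. Tgfb1, the ligand of a pathway that keeps fibroblast identity, closed in both pairs, with 7 and 1 reads in pre-iPSCs against 19 and 5 in iPSCs, while its transcripts were not called (limma, adjusted p = 0.703). Dppa3, Trap1a, Tcfcp2l1 and Vcam1 did not pass the filter.

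Of 71 fibroblast genes 48 passed the filter, 2 opened (Myl9 and Snai1) and 3 closed (Col6a2, Tgfb1 and Fbln2), which is 4.17% and 6.25% against 9.01% and 4.36%. The pooled window level was 1.4 and 0.533 in pre-iPSCs against 1.09 and 0.708 in iPSCs, 0.779 in pair 1 and 1.33 in pair 2 for iPSCs over pre-iPSCs, beside 0.674 and 1.04 for all promoters. In pair 1 the group thus fell, but by less than all promoters did. In MEFs, which were digested differently, it was 0.419 and 0.443, beside 0.583 and 0.624 for all promoters in the same libraries. Col6a2, a collagen VI chain, had no window reads in either pre-iPSC library or either MEF library, and 15 and 8 in iPSCs. Its pre-iPSC nucleosomes framed the window at -189 and +91 bp in replicate 1 and at -185 and +88 bp in replicate 2, and its iPSC calls lay inside it at -94 and -136 bp. Col6a2 transcripts were not called (24.3 and 9.44 against 15.8 and 15.7 FPKM; limma, adjusted p = 0.977). Fbln2, an extracellular matrix protein, also had 0 window reads in both MEF libraries. A window with 0 reads was common in MEF replicates 1 and 2, at 40.0% and 36.3% of all promoters. It was found at 38.0% and 32.4% of the fibroblast list.

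Fibroblasts from the feeder layer could be present in both cell types. The 11 fibroblast markers checked summed to 1148 and 851 FPKM in pre-iPSCs against 426 and 555 FPKM in iPSCs, with none at 0, against 7719 and 9558 FPKM in MEFs. In pre-iPSCs most of this sum was Vim (vimentin), at 845 and 754 FPKM, beside 215 and 308 in iPSCs and 3302 and 5248 in MEFs. Without Vim the other 10 summed to 304 and 97.7 FPKM in pre-iPSCs and to 211 and 247 in iPSCs, which overlap. The fitted log2 change was above 0 for 7 of the 11. None of the 11 was called by limma between pre-iPSCs and iPSCs, where 3.91% of all genes tested were called higher and 4.71% lower, and their part in the results was not tested. Of 10 markers of pluripotent cells, 7 were called higher in iPSCs (against the same 3.91%), and none of the 10 was at 0 in iPSCs.

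Epithelial genes had 2 opening and 2 closing of 39 filtered members, 5.13% each against 9.01% and 4.36%. Cdh1 (E-cadherin), whose rise is a step of reprogramming, opened with 49 and 6 window reads in pre-iPSCs against 19 and 0 in iPSCs, and its transcripts rose from 27 and 6.56 to 71.9 and 54.2 FPKM (limma, adjusted p = 0.0399). Ap1m2, an adaptor of epithelial sorting, closed by the rule while its expression rose. Its window reads were 70 and 69 in pair 1, and its flank went from 130 to 35, so that the change of pair 1 came from the flank. Of the keratins, 2 opened and 1 closed of 41 filtered members (4.88% and 2.44%). Krt13, a keratin of stratified epithelia, opened while its transcripts went from 42.0 and 35.7 FPKM to 0.00 in both iPSC libraries. The Krt13 window held 60 and 5 reads in pre-iPSCs against 28 and 0 in iPSCs. Its flank went from 25 to 45 in pair 1 and from 32 to 40 in pair 2, so the flank took part in the change. Without iPSC replicate 2 the mean change of Krt13, -2.34, became 0.014.

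The clustered protocadherins, cell adhesion genes with many alternative promoters in a row, opened at 8 of 25 filtered members and closed at none, 32% against 9.01%. As with the germline list, the filter kept members through the library in which they were high, mostly pre-iPSC replicate 1, so this share is a description. Their pooled window level was 4.42 and 0.902 in pre-iPSCs against 0.826 and 0.635 in iPSCs. The level of 4.42 rests in part on a low flank, of 19.7 reads per promoter beside 57.0 over all promoters in pre-iPSC replicate 1. In iPSC replicate 1 the flank held 30.8 beside 46.0. In expression 1 of the 20 tested was called higher, beside 3.91% of all genes tested. These promoters lie in tandem arrays on 1 chromosome and resemble one another, so they are not separate observations. Olfactory receptor genes, of which 2 had enough FPKM to be tested for expression, were at 1.04 and 1.05 in pre-iPSCs against 1.09 and 1.01 in iPSCs, with 8 opening and 10 closing of 214 (3.74% and 4.67%).

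Chromatin remodelling genes and ribosomal protein genes mostly did not pass the filter. Only 11 of 47 remodeller genes passed the filter, and 1 (9.09%) opened. That was Smarca5, the ISWI motor protein SNF2H, with 14 and 4 reads in pre-iPSCs against 4 and 0 in iPSCs. Ribosomal protein genes had 7 of 77 filtered, with 1 opening and 1 closing (14.3% each). Of the Hox genes, which pattern the body axis, Hoxb4 opened and Hoxd10 closed among 24 filtered (4.17% each). The zinc finger genes named Zfp had 11 opening and 4 closing of 88, or 12.5% and 4.55%, against 9.01% and 4.36% of all filtered promoters. Of the core and linker histone genes 3 of 67 passed, and none opened or closed.

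**Figure D2:**
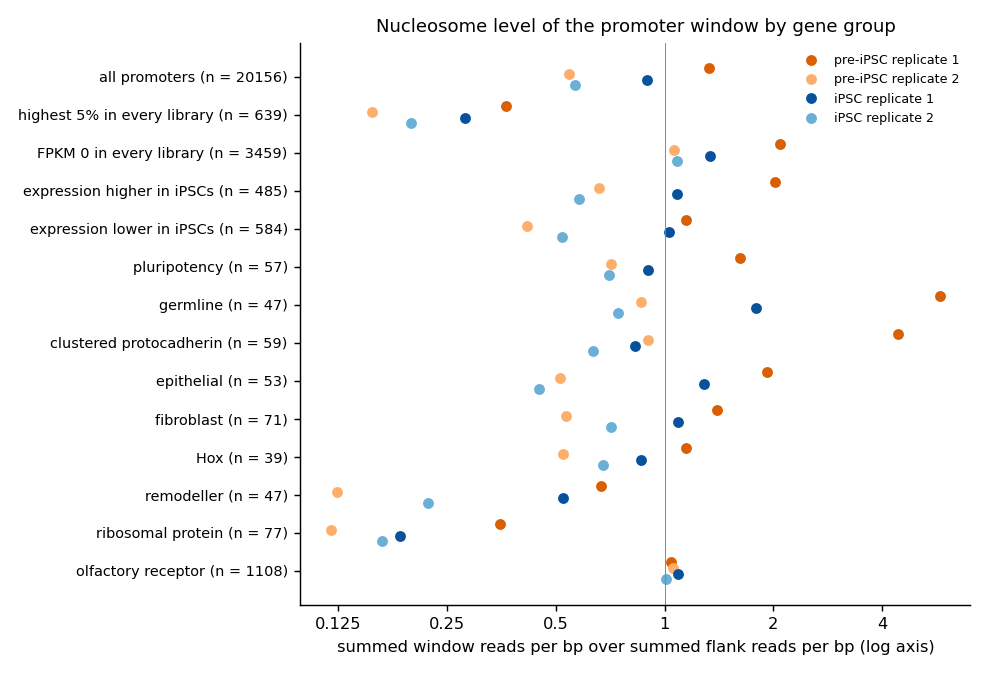
Window level by gene group in the 4 H3 libraries, as summed window reads per bp over summed flank reads per bp on a log axis, with the number of genes in each group beside its name. Each dot is 1 library. The germline and protocadherin groups reached 5.78 and 4.42 in pre-iPSC replicate 1, while the olfactory receptors stayed between 1.01 and 1.09 in all 4 libraries. The flank of the 2 groups held 47.5 and 19.7 reads per promoter there, beside 57.0 over all promoters.

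Independent of the window rule, the genes called in expression gave a second view. Of 12401 genes tested by limma, 485 (3.91%) were higher in iPSCs and 584 (4.71%) were lower, at an adjusted p below 0.05 and at least 2-fold. With no filter on FPKM, 421 of 16963 were higher and 367 lower, so which side was larger depended on the filter. The 485 genes that were higher had a window level of 2.02 and 0.66 in pre-iPSC replicates 1 and 2 and of 1.08 and 0.578 in iPSC replicates 1 and 2. The 584 genes that were lower had 1.14 and 0.415 in pre-iPSCs against 1.03 and 0.52 in iPSCs. In pair 2, where all promoters together were almost level, the first group was 0.876 of its pre-iPSC level and the second 1.25.

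Relative to all promoters in the same pair, genes higher in iPSCs were at 0.795 in pair 1 and 0.842 in pair 2, and genes lower in iPSCs at 1.33 and 1.2. Split into CpG-poor and CpG-rich promoters, both groups kept these directions relative to all promoters. Set against CpG-rich promoters alone, however, CpG-rich genes lower in iPSCs did not stand out in pair 2 (1.23 beside 1.24 for iPSCs over pre-iPSCs). Of the genes that were higher and had reads, 69.5% had a lower window in iPSCs in pair 1 and 54.1% in pair 2, beside 59.7% and 45.9% of all promoters. Of the genes that were lower, 57.0% and 43.0% had a lower window, so that gene by gene this group was close to all promoters. With iPSC replicate 1 set against pre-iPSC replicate 2, the genes higher in iPSCs were level with all promoters (0.00 on the log2 scale, against -0.33 and -0.25 in pairs 1 and 2). With iPSC replicate 2 set against pre-iPSC replicate 1, the genes lower in iPSCs were at 0.09, against 0.42 and 0.27, so neither difference was the same in every pairing. With 2 libraries a group no exact permutation p can go below 0.333, and no test was made over the groups.

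Seen from the windows, the same relation was weak for single genes. Among the filtered promoters tested for expression, 43 of 370 opening genes were called higher in iPSCs, which is 11.6% against 7.84% of all filtered and tested. Of the closing genes, 26 of 172 were called lower, 15.1% against 7.76%. The opposite combinations occurred too, with 25 opening genes called lower (6.76% against 7.76%) and 6 closing genes called higher (3.49% against 7.84%). Across the 3660 filtered and tested genes, Spearman's rho between the change of the window and that of expression was -0.15 in pair 1 and -0.06 in pair 2, as a description over genes that share their libraries.

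Some genes with both changes were singled out after their values were seen. Foxh1, a transcription factor of Nodal signalling, had 47 and 10 window reads in pre-iPSCs and 0 in both iPSC libraries, and its transcripts rose from 5.43 and 0.199 to 67.4 and 33.4 FPKM (limma, adjusted p = 0.00728). Psma8, a proteasome subunit of the testis, opened with 54 and 7 reads against 16 and 0, and Rnf17, a Tudor protein of male germ cells, with 72 and 10 against 14 and 2. On the closing side stood 2 genes of caveolae, the small pits of the cell membrane. Ptrf (cavin-1) had 0 window reads in both pre-iPSC libraries and 18 and 5 in iPSCs, and its transcripts fell from 189 and 195 to 14.9 and 18.9 FPKM (limma, adjusted p = 0.00313). Prkcdbp (cavin-3) had 0 and 0 against 23 and 2, with transcripts at 58.6 and 68.4 against 6.05 and 6.39 FPKM. Plekha6, Barx2 and Nt5e, all called lower, also had 0 reads in both pre-iPSC libraries. Prtg, a receptor of the early embryo, closed while its transcripts rose from 0.02 in both pre-iPSC libraries to 6.68 and 9.09 FPKM.

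**Figure D3:**
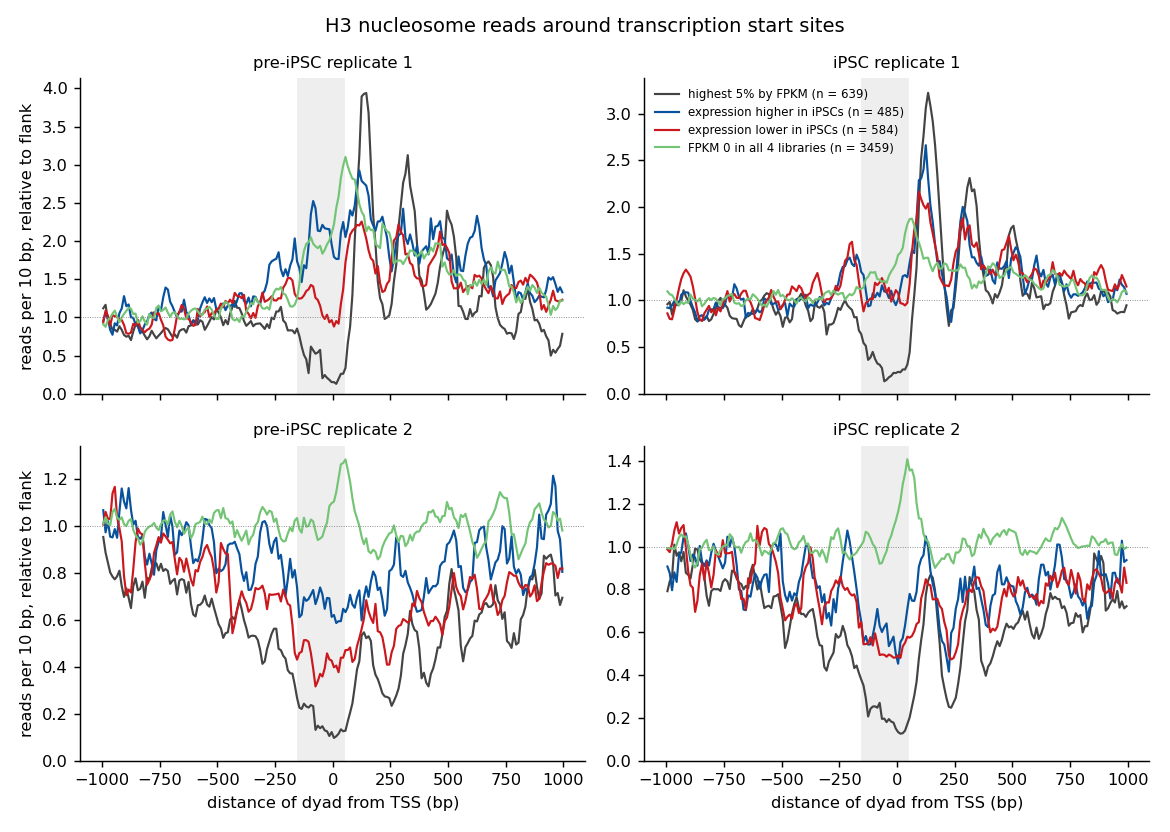
Nucleosome reads around the TSS in the 4 H3 libraries, in bins of 10 bp smoothed over 5 bins and divided by the mean of the flank, against distance of the dyad from the TSS in bp. Each panel has its own vertical scale. The 639 genes in the highest 5% by FPKM in every library had the deepest trough in the grey window, and the 3459 genes at 0 FPKM reached no lower than 0.92 of the flank. Genes higher in iPSCs (blue) lay above genes lower in iPSCs (red) in the window in both pre-iPSC libraries, and near them in both iPSC libraries.

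The most expressed and the silent genes differed in the window in every library, and they also differed in CpG content, since 87.3% of the first and 1.94% of the second were CpG-rich. Genes in the highest 5% by FPKM had window levels of 0.365 and 0.155 in pre-iPSCs against 0.281 and 0.199 in iPSCs. Genes at 0 FPKM in all 4 libraries were at 2.08 and 1.06 in pre-iPSCs against 1.34 and 1.08 in iPSCs. CpG-rich promoters were at 0.79, 0.201, 0.542 and 0.249, and CpG-poor ones at 1.84, 0.876, 1.26 and 0.884, in the same order of libraries. For the highest 5%, the +1 nucleosome peaked 135 to 145 bp downstream of the TSS in all 4 libraries.

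At most 1 promoter was called by any of the tests of the window over the flank that used all 4 libraries. The edgeR quasi-likelihood test of the window over the flank called 0 of 7748 promoters, with 156 at an unadjusted p below 0.05, or 2.01%, while DESeq2 and the edgeR fit with the replicate number as a block called 1 each. The smallest p belonged to Sfi1, a centrosome protein (edgeR, adjusted p = 0.249), with 792 and 144 window reads in pre-iPSCs and 0 in both iPSC libraries. Its iPSC calls lay 2 to 7 bp outside the window, at -152 bp with 297 reads and +55 bp with 456 in replicate 1, and at -157 bp with 160 and +54 bp with 180 in replicate 2. With the reads spread over the footprint of each call, its mean change of -9.06 became -1.19. The Sfi1 flank held 315, 447, 738 and 479 reads, far above the medians of 34, 26, 42 and 29, and whether several copies of the gene share these reads was not tested. The test of the window reads alone called 0 of 5882, with 63 at an unadjusted p below 0.05 (1.07%) and 1 by DESeq2. That of the +1 window, from 51 to 250 bp downstream, called 0 of 13562, with 156 (1.15%) and 0 by DESeq2.

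Sfi1 was among the 12 largest opening changes, as were Galt and Rasgrp2, both expressed in all 4 libraries, and F830045P16Rik, Gp6 and Sectm1b, at 0 FPKM in all 4. Cxcl10, a chemokine induced by interferon, had 20 and 14 reads in pre-iPSCs against 0 and 0 in iPSCs. Others among them were Dnahc9, Gpr183, Scd3 and Prss38, and all 12 had 0 reads in both iPSC libraries. With a count of 0 the fold has no upper limit from these data, and the log2 value rests on the reads added. Of the 698 opening promoters, 134 had 0 window reads in both iPSC libraries.

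The 12 largest closing changes were those of Pyy, Plg, Gsn, Otop2, Kcng4, Rreb1, Rad21l, Prss55, D7Ertd443e, Hdc, Darc and Asb14. Pyy, a gut hormone gene, had 0 and 0 reads in pre-iPSCs against 45 and 15 in iPSCs. Plg, the plasminogen gene of liver, had 0 and 0 against 13 and 16. Gsn, which encodes the actin-severing protein gelsolin, had 0 and 0 against 27 and 16 and was the most expressed of the 12, at 28.9 to 59.9 FPKM with no call between cell types. Of the 338 closing promoters, 107 had 0 window reads in both pre-iPSC libraries.

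Some of these changes involved calls at the edge of the window. At Pyy the nearest upstream pre-iPSC call stood at -151 bp with 74 reads in replicate 1 and at -155 bp with 6 reads in replicate 2, and the iPSC call of replicate 1 at -141 bp with 45 reads. The calls of replicate 1 were thus 10 bp apart, on either side of the edge, whereas the iPSC call of replicate 2 stood at -5 bp with 15 reads. At Plg the pre-iPSC calls lay at -184 and -152 bp, and the iPSC calls in the window at -2 bp in replicate 1 and -136 bp in replicate 2. Among the opening promoters 47.7% had an iPSC call of at least 5 reads within 30 bp outside the window in at least 1 library, against 31.9% of all filtered promoters. Among the closing ones 55.3% had such a call in pre-iPSCs, against 27%. The other way round, 20.3% of opening promoters had a pre-iPSC call there and 26.9% of closing ones an iPSC call. The rule picks windows that are low in 1 cell type, so calls beside them are partly built in and these shares are a description. With the reads of each call spread over its 147 bp, 427 promoters opened and 150 closed, of which 307 and 98 were among those counted above.

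The 2 pairs were nearly unrelated promoter by promoter. While 698 promoters opened in both pairs and 338 closed, 698 opened in pair 1 and closed in pair 2 and 271 did the reverse, so that 1036 moved the same way by at least 2-fold and 969 moved in opposite ways. With reads spread over the footprint, 427 opened and 150 closed in both pairs, while 599 opened in 1 pair and closed in the other. The small excess of like moves was thus not kept. Across the 7748 promoters Pearson's r between the 2 changes was 0.04. In pair 1 alone 3148 promoters opened and 1448 closed, and in pair 2 alone 1565 opened and 1812 closed. At the filtered promoters replicates of a cell type were also far apart, with an r of the log2 ratio of -0.02 between the pre-iPSC libraries and 0.12 between the iPSC libraries. Libraries with the same number but of different cell types had an r of 0.12 for replicate 1 and 0.27 for replicate 2 (Spearman's rho of 0.28 and 0.33), so that like numbers were at least as close as like cell types. The filter keeps promoters through a library in which they are high, which by itself can lower r between libraries. How far it did so was not tested. The paper reports a high correlation between replicates over wide genomic regions, which is another measure. At the limit of the rule, Tcf23 counted as opening with changes of -2.42 and -1.01, and Pax8, marginally short of the limit in pair 1, did not despite -2.83 in pair 2. Cpvl counted as closing with a pair 1 value at the limit and 1.95 in pair 2, and Sh3rf2, with 4.66 in pair 1 and a pair 2 value marginally under the limit, did not.

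**Figure D4:**
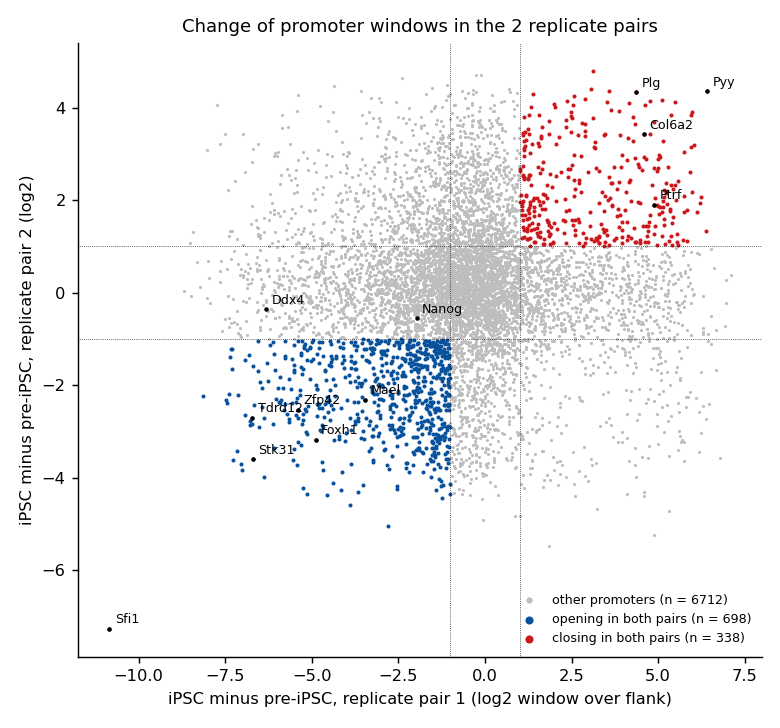
Change of the promoter window (iPSC minus pre-iPSC, log2 of window over flank) in replicate pair 1 against replicate pair 2, for the 7748 promoters that passed the filter. Blue points are the 698 that opened in both pairs, red points the 338 that closed, and the dotted lines mark a 2-fold change. The points form no diagonal, and the upper left quadrant is as full as the lower left.

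Features of the opening and closing sets were compared as shares, with no test. CpG-rich promoters made up 36.1% of the opening and 26.6% of the closing set, against 31.7% of all filtered. The TATA box core (TATAAA on either strand, anywhere from -150 to +50 bp) was found in 13.9% of closing, 7.88% of opening and 8.66% of filtered promoters, and in 8.61% of all. The E-box CACGTG was found in 8.45% of opening and 7.69% of closing promoters against 5.65%, the octamer ATGCAAAT in 1.43% and 0.888% against 0.968%, and the GC box GGGCGG in 41.1% and 32.2% against 37.4%. The core of the NRF1 motif was found in 3.87% of opening, 2.96% of closing and 2.41% of filtered promoters, and in 5.76% of all. Genes at 0 FPKM in all 4 libraries made up 11.6% of the opening and 20.4% of the closing set, against 16.5%. CCAAT was found in 23.1% of opening and 25.1% of closing promoters against 23%. Of the printed sequences, Stk31 carries the E-box and the NRF1 core, Zfp42 carries a GC box and CCAAT, and Tdrd12 a GC box.

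Few promoters were called for either histone mark. H3K4me3 within 500 bp of the TSS, in 2 libraries a cell type, gave 0 calls of 14874 by edgeR, with 1080 (7.26%) at an unadjusted p below 0.05 and 0 by DESeq2. Its median log2 difference was 0.12 in the opening and -0.04 in the closing set, against 0.08 over all filtered promoters. The repressive mark H3K27me3 gave 4 calls of 4436 (0.0902%), all higher in iPSCs, at Nfix, Hoxa9, Pdzd7 and Nccrp1, and DESeq2 gave 0. None of the 4 opened or closed.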

How the data were processed

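The deposited H3, H3K4me3 and H3K27me3 tables hold nucleosome calls with a read count for each call. To make them, per the labels and the methods, reads were mapped to mm9 with Bowtie, repeated reads were limited, reads were shifted by 73 bp, and the authors called nucleosomes with GeneTrack, each library by itself. Expression is the authors' FPKM from TopHat2 2.0.4 and Cufflinks 2.0.2, deposited in 2 tables, 1 for each replicate number, with 3 cell types in each. The deposited fuzziness of a call (its spread in bp) was read but is not printed, and H3K9me3 was not used. No per-sample column was left unassigned in these tables.

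Each call put its whole read count at its dyad (start plus 73 bp) and was placed relative to the TSS of each gene in the expression table, in the windows given above. Ratios were tested with edgeR 4.0.16 (quasi-likelihood, window against flank within library, total reads in calls as library size) and DESeq2 1.42.0. Marks were tested with edgeR after TMM scaling, with the MEF libraries in the fit, so the spread was estimated over MEFs as well. Expression was tested with limma 3.58.1 on log2(FPKM + 1) for genes averaging at least 0.5 FPKM, with the table as a term and MEFs in the fit. On this scale a log2 change understates that of low genes. Adjusted p-values are Benjamini-Hochberg over all features, two-sided. The scripts were tested on simulated data. A pooled level is the sum of window reads per bp over the sum of flank reads per bp, CpG-rich means a CpG ratio of at least 0.6 and GC of at least 50% within 500 bp of the TSS, and sequences were read from the mm9 genome, whose chromosome lengths the files match. Antisense or overlapping genes and multicopy genes were not separated.

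Named genes are the 12 opening and 12 closing promoters with the largest smaller change of the 2 pairs, up to 6 opening or closing genes a list in the same order, and a fixed set of genes the study discusses. Of these, 1 opening gene is not reported here. The members and the gene lists were chosen with earlier results of these data known. Read counts without molecular identifiers cover counting error only. Alternatives tried were the threshold, pseudocount, filter, window, flank, pairing, scaling and leaving out each library.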

Additional observations from a re-analysis of the deposited data

How the results depend on the processing

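The counts of promoters that opened (698) and closed (338) depended on the settings. They were 1192 and 635 at 1.5-fold, 337 and 167 with 20 reads per kb added, 1416 and 866 with no filter, 56 and 15 with at least 20 window and 50 flank reads, 235 and 221 when all 4 pairings had to pass, and 427 and 150 with reads spread over the footprint (added after seeing the data). Leaving out 1 library gave 354 to 2744 opening and 331 to 1440 closing promoters. They were 354 and 1440 without pre-iPSC replicate 1, and 1271 and 331 without iPSC replicate 1, the other library that stood apart, 827 and 661 without iPSC replicate 2 and 2744 and 1023 without pre-iPSC replicate 2. In each of these both comparisons share a library. Centring each pair on its median promoter gave 536 and 487, and centring on promoters of like GC content 558 and 483. The median change was -0.61 in pair 1 and 0.08 in pair 2, and -0.14 and -0.08 with the window from -100 to 0 bp, so the sign of pair 2 turned.

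Calls by test stayed few. For the window over the flank, DESeq2, no filter and the replicate block each gave 1 call against 0, and leaving out 1 library gave 0 to 1. For the +1 window no filter gave 1, and leaving out 1 library 0 to 1. For window reads DESeq2 and no filter gave 1 each, and leaving out 1 library 0 to 7, with 7 without iPSC replicate 1 (fewer promoters passed there). For H3K4me3 no filter gave 2. For H3K27me3 the 4 calls became 0 with DESeq2 and 2 with the replicate block, and 0 to 2 when a library was left out. Expression gave 1069 calls, 605 with 5 FPKM added and 87 to 745 when a library was left out. The cause of these differences was not tested.

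Genes called higher in iPSCs had a window change of -0.29 relative to all promoters (mean of the pairs, log2), -0.38 in the window from -100 to 0 bp, and -0.45 to -0.13 when a library was left out. Genes called lower had 0.34, and 0.18 to 0.50 when a library was left out. For 79 named genes under 9 alternatives each, 328 of the values moved by more than the SD of the 2 pairs (52 of 79 genes with reads spread over the footprint), 379 did not, and 4 turned sign, namely reads spread over the footprint for Marveld3 (0.12) and Olfr161 (-0.68), and leaving out iPSC replicate 2 for Krt13 (0.014, in a range of -4.69 to 0.014 over the 4 libraries left out) and Olfr15 (0.0855, in a range of -4.97 to 0.0855). The labels do not say that a replicate number links libraries, and the deviations of same-numbered H3 libraries correlated at 0.17 over 7748 promoters. The replicate block is thus a fit over shared numbers only, and it left 1 call for the window over the flank. Windows that passed the filter held a median of 4 and 5 reads in the libraries numbered 2, which limits the precision of pair 2 at single promoters. The crossed pairings of the gene lists and the marker sum without Vim were chosen after seeing the data.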
